A study of Mus musculus with 4 samples.

Results

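RUVBL2 peaks were examined at the Zbtb genes of the mouse, in ChIP-seq of the hypothalamus. The 41 genes are every protein-coding gene of a RefSeq gene table, among 21779 in all, whose symbol begins with Zbtb followed by a digit. The family was picked on its peak calls, with the share of its genes called in both libraries already known, so its counts and folds are a description and carry no test. Of the 41 genes, 17 had a region called in both RUVBL2 libraries at a gene end, 1 had such a region inside its body alone, 12 had a peak in replicate 2 only, 1 had a peak in replicate 1 only and 10 had no peak.

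The tissue was hypothalamus of wild-type male C57BL/J mice aged 8 weeks, fixed with 1% formaldehyde for 10 min. ChIP-seq sequences the DNA fragments that an antibody pulls down, here an antibody against RUVBL2. The series has 2 RUVBL2 ChIP libraries and 2 input libraries, numbered 1 and 2, and the input libraries were not analysed here. Whether these numbers mark separate mice or pools is not stated, so the spread between replicates may be technical. The tissue was taken whole, so a region occupied in fewer cells and a region occupied less in each cell cannot be told apart. RUVBL2 itself was not measured as RNA or protein in the files, and the labels give no loss of RUVBL2 to check the antibody against.

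RUVBL2 is an AAA+ ATPase that works with its partner RUVBL1 as part of chromatin remodelling complexes such as INO80 and SRCAP, the TIP60 acetyltransferase complex and a chaperone complex. Zbtb proteins pair a BTB domain, which binds other BTB domains and corepressors, with C2H2 zinc fingers that read DNA. Many act as repressors, and members are best known from the choice of cell fate in blood cells and neurons. Zbtb8os is the exception in the family by symbol: it is named for lying opposite Zbtb8 genes and encodes archease, a cofactor of the tRNA ligase, not a zinc finger transcription factor.

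Promoter sequences of 6 member genes are shown because they carry what the results turn on: the highest-ranked region (Zbtb8os), a start that holds a region beside one of the same gene that does not (Zbtb38), the start between a pair of members (Zbtb25) and windows with matches to several motifs (Zbtb11, Zbtb21 and Zbtb17). Each runs 5′ to 3′ on the gene's strand from 250 bases before to 50 after a RefSeq start of GRCm38.p6, the build of the files. Capitals mark matches, on either strand, to the CCAAT box (the letters of its name), CACGTG (E-box), TGACGTCA (CRE), GGGCGG (GC box), CCGGAAGT (ETS site), GCATGCGC (part of the NRF1 palindrome), AAGATGGCG (YY1 site) and CTCGCGAG (core of the palindrome bound by Kaiso, the Zbtb33 protein).
Zbtb8os, chr4:129335718-129336017, plus strand: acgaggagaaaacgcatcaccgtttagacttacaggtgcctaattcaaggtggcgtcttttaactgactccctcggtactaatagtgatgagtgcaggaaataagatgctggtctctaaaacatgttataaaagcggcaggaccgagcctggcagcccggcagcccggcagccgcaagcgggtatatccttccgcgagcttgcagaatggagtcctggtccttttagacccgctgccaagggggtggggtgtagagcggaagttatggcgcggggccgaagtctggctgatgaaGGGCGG
Zbtb38 inner start, chr9:96719801-96720100, minus strand: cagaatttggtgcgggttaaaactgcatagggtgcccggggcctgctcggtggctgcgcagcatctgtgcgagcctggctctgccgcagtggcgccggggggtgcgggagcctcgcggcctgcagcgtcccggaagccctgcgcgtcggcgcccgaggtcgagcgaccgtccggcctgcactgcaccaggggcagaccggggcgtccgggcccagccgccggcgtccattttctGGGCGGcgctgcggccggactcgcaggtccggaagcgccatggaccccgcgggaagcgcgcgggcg
Zbtb38 outer start, chr9:96731626-96731925, minus strand: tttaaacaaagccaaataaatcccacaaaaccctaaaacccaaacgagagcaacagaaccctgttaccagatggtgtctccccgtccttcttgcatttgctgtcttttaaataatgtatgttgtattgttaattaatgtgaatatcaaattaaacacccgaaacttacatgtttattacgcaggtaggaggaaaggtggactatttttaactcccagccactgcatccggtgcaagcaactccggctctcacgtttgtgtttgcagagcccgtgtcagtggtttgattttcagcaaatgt
Zbtb25, chr12:76369511-76369810, minus strand: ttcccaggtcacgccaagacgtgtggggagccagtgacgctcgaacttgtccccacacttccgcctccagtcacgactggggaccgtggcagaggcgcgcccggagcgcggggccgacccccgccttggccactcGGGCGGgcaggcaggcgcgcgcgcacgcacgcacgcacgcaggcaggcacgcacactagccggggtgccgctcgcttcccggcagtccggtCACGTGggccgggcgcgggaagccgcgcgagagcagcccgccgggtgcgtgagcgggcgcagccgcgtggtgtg
Zbtb11, chr16:55973554-55973853, plus strand: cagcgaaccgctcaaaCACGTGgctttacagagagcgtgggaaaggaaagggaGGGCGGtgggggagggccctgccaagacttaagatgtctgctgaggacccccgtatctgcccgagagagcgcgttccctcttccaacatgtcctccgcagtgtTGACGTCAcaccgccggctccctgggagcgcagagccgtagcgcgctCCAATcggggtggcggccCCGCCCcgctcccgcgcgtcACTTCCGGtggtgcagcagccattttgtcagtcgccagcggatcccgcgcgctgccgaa
Zbtb21, chr16:97962573-97962872, minus strand: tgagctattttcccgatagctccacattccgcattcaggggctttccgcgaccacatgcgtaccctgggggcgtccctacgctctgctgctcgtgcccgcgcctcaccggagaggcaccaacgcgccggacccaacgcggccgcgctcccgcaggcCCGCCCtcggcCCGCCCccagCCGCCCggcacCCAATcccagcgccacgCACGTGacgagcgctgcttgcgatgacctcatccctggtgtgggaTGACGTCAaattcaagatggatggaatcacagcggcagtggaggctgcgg
Zbtb17, chr4:141444434-141444733, plus strand: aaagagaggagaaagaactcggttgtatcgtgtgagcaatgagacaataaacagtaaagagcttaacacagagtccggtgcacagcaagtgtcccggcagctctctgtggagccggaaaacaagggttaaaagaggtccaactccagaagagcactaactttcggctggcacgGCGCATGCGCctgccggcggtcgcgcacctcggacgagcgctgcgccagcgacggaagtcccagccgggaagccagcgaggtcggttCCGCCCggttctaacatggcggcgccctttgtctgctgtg
In Zbtb17 the capitals join a pair of overlapping matches to the NRF1 letters, 1 on each strand. The outer Zbtb38 window holds 8 CpG dinucleotides and no match, while the inner one holds 41 CpG and a GC box.

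A region was counted as shared where peaks of both lists overlapped by at least 1 bp, and a gene held it at an end where the region's midpoint lay within 3 kb of either end of the gene. Such a region lay at an end of 17 of the 41 Zbtb genes (41.5%, 95% Clopper-Pearson interval 26.3 to 57.9), against 16% of all protein-coding genes (3483 of 21779). With regions in the gene body added, 18 Zbtb genes held one (43.9%, interval 28.5 to 60.3), against 17.2% of all protein-coding genes. A replicate 1 peak lay at an end or in the body of 19 Zbtb genes (46.3%), against 20.9% of all protein-coding genes. A replicate 2 peak lay there in 30 Zbtb genes (73.2%), against 32.6% of all protein-coding genes. No peak of either list was found at 24.4% of the Zbtb genes and at 64.25% of all protein-coding genes. In both libraries the Zbtb share was above that of the Zfp genes, and theirs above that of all protein-coding genes. The comparison lists described below lay near the Zbtb genes for peaks of single libraries. A shared region at an end was held by 50% of the other BTB zinc finger genes and 25% of the cofactor genes. Of 8 other BTB zinc finger genes, 50% had a replicate 1 peak and 62.5% a replicate 2 peak. Of 16 cofactor genes, these shares were 43.75% and 68.75%. The family was picked on these calls, so the order carries no test. The 397 Zfp genes, which mostly encode zinc finger proteins with no BTB domain, had a shared region at an end in 84 cases (21.2%, interval 17.2 to 25.5).

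**Figure D1:**
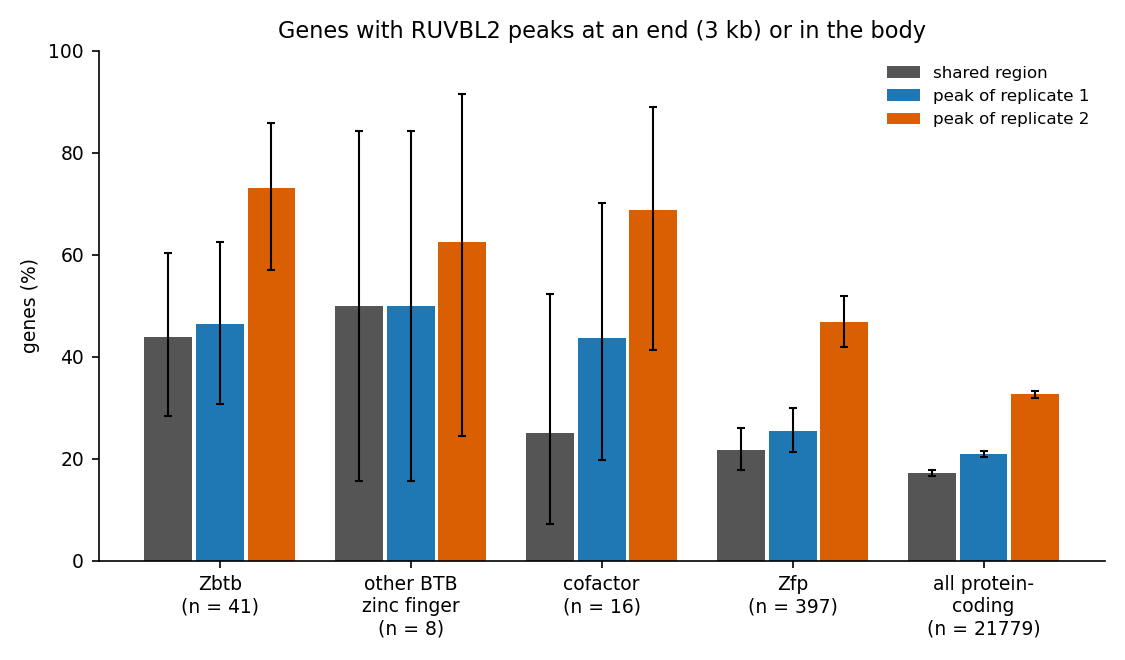
Share of genes (%) with a RUVBL2 shared region, a replicate 1 peak or a replicate 2 peak at an end (within 3 kb) or in the body, for Zbtb genes, 2 comparison lists, Zfp genes and all protein-coding genes; bars are shares and whiskers are 95% Clopper-Pearson intervals. The Zbtb bars stand at 43.9%, 46.3% and 73.2%, and those of all protein-coding genes at 17.2%, 20.9% and 32.6%.

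Each deposited fold enrichment is the authors' value: the read pileup at the summit over a background estimated by their peak caller, with 1 added to each. The pileup and background behind each fold were recovered from it and the −log10 p. Brackets after a fold give the exact Poisson 95% range of the pileup at a constant background. These ranges hold only the error of counting, and leave out the error of the background and the spread between replicates. Reads amplified by PCR are not independent molecules, so the ranges may be too narrow even for that error. The 18 genes held 17 distinct regions, because Zbtb1 and Zbtb25 share 1 region, Zbtb6 and Zbtb26 share 1, and Zbtb6 has 1 more. The median fold of the 17 regions was 5.55 in replicate 1 and 5.14 in replicate 2, while over all 3111 shared regions it was 5.05 in replicate 1 and 5.35 in replicate 2. In 7 of the 17 Zbtb regions (41.2%) the fold was above the median of all shared regions in both libraries, against 953 of all 3111 (30.6%). The folds of the Zbtb regions thus lay on both sides of the median of all shared regions. Their median summit pileups were 18 reads in replicate 1 and 28 in replicate 2, against 17 and 25 over all shared regions, so single folds are imprecise.

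Ordered by the poorer of both ranks, Zbtb8os had the first region. At chr4:129334942-129336085 its fold was 10.8 (7.63 to 14.8) in replicate 1, from a pileup of 36 reads, and 8.67 (6.50 to 11.3) in replicate 2, from 51 reads. These were the 37th of 3943 peaks in replicate 1 and the 142nd of 6403 in replicate 2 by −log10 p. Relative to the start nearest the region's midpoint, with negative values upstream, the summits lay at −104 bp in replicate 1 and −84 bp in replicate 2. The region also covered the start of Rbbp4 on the other strand, which encodes a histone-binding subunit of several chromatin complexes, so the peak cannot be assigned to 1 of the 2 genes. Its neighbours Zbtb8a and Zbtb8b had no peak, and the nearer end of Zbtb8a, which is not its start, lay 3760 bp from Zbtb8os.

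Of the 3 members that encode methyl-CpG binding proteins, Zbtb4 and Zbtb38 held a shared region and Zbtb33 had no peak. A shared region at an end or in the body was held by 43.9% of all 41 Zbtb genes. Among all protein-coding genes this share was 17.2%, and no difference from these was tested. Zbtb38 had a fold of 9.81 (6.77 to 13.8) in replicate 1, with 9.26 (6.59 to 12.7) in replicate 2 at chr9:96719277-96720325. That region lay 11874 bp from the nearer end of the gene and held 2 annotated inner starts, including the inner one printed above, with the summits at 30 and −104 bp from it. Its outer start had no shared region: the only peak near it was in replicate 2, with a fold of 3.38 (1.91 to 5.61) and its summit at −1369 bp. This was the second of the Zbtb regions by rank, and counts by gene ends alone leave it out.
The Zbtb4 region had lower values, with a fold of 5.55 (3.36 to 8.70) in replicate 1 and, in replicate 2, of 4.87 (3.10 to 7.32), at chr11:69766049-69766495. This region began 137 bp after the Zbtb4 start. Zbtb33, which encodes Kaiso and is the only member on the X chromosome, lay 24908109 bp from the nearest replicate 1 peak and 367439 bp from the nearest replicate 2 peak.

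Of 7 members known from blood and immune development, 4 held a shared region (Zbtb1, Zbtb7a, Zbtb17 and Zbtb32), Zbtb7b had a peak in replicate 2 only, and Zbtb16 and Zbtb46 had none. A shared region at an end or in the body was held by 43.9% of all 41 Zbtb genes and 17.2% of all protein-coding genes, and no difference from these was tested. Zbtb1, which is required for lymphocyte development, shares its region with Zbtb25 on the opposite strand, and the 2 genes overlap by 164 bp. At chr12:76368967-76370768 the fold was 6.78 (4.32 to 10.2) in replicate 1, with 8.71 (6.01 to 12.3) in replicate 2. Both summits lay nearer the Zbtb25 start of the printed window, 273 and 406 bp downstream of it, and at −1233 and −1366 bp from the Zbtb1 start. The replicate 1 peak ended before the Zbtb1 start, whereas the replicate 2 peak covered starts of both genes.
Zbtb17, whose product Miz-1 is a DNA-binding partner of MYC, had a fold of 6.16 (3.83 to 9.45) in replicate 1, and one of 6.46 (4.46 to 9.09) in replicate 2 at chr4:141444554-141445021. The summits lay 154 and 60 bp downstream of the start of the printed window. Zbtb7a, which directs the choice between B and T lymphocytes, had a fold of 5.24 (3.13 to 8.32) in replicate 1, and one of 7.13 (4.71 to 10.4) in replicate 2 at chr10:81135804-81137877. This was the widest Zbtb region, 2074 bp, and the region at Zbtb17, 468 bp, was among the narrowest.
Zbtb32, a regulator of lymphocyte responses, had a fold of 6.47 (4.07 to 9.83) in replicate 1, and one of 3.94 (2.53 to 5.88) in replicate 2. That region began 3311 bp past the nearest Zbtb32 start, near the far end of the gene, and its midpoint was 110.5 bp from an end of Kmt2b, which encodes a histone methyltransferase. Zbtb32 is thus counted for a region that lies closer to its neighbour.

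The 3 members known from neural and glial development all had a peak in replicate 2 and none in replicate 1. Replicate 2 peaks were also found at 73.2% of all 41 Zbtb genes and 32.6% of all protein-coding genes, and replicate 1 peaks at 46.3% and 20.9%, and no difference from these was tested. Zbtb18, which is needed for cortical neuron development, had a fold of 4.22 (2.48 to 6.79), with the summit at −707 bp from a start. Zbtb20, known from hippocampal and pituitary development, had a fold of 4.49 (3.02 to 6.47), and that peak lay 340 bp outside the gene with its summit at −372155 bp from the only annotated start used. Zbtb45, known from glial differentiation, had a fold of 4.08 (2.65 to 6.04), with the summit at −144 bp from its start. In replicate 1 the nearest peaks to these 3 genes were 183520, 504760 and 14298 bp away. The depth of replicate 1 is unknown, so these genes are not shown to lack RUVBL2 in that library.

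Members linked to telomeric or repeat DNA had 0 shared regions among 4 genes. A shared region was held by 43.9% of all 41 Zbtb genes and 17.2% of all protein-coding genes. A replicate 2 peak was found at 73.2% and 32.6% of them, and no difference from these shares was tested. Zbtb10 had a replicate 2 peak with a fold of 3.57 (1.98 to 6.02), Zbtb24, a gene of the human ICF syndrome, had 4.11 (2.67 to 6.08), and Zbtb40 had 3.74 (2.62 to 5.18). Zbtb48, which encodes the telomere-binding protein TZAP, had no peak, the nearest being 10307 bp away in replicate 1 and 10231 bp in replicate 2.

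The other 23 members include 11 with a shared region, against 43.9% of all 41 Zbtb genes and 17.2% of all protein-coding genes. No difference from these was tested. Zbtb11, in which human variants are linked to intellectual disability, had a fold of 6.37 (4.06 to 9.59) in replicate 1, and one of 9.76 (6.92 to 13.4) in replicate 2 at chr16:55973567-55974997. Its summits lay 874 and 912 bp downstream of the start, and the region passed the 3 kb limit by little, with a midpoint 2845 bp from the nearer gene end of the table. An end of Rpl24 lay 2845 bp from that midpoint too. The nearest member outside the limit was Zbtb46, a gene of classical dendritic cells, with a midpoint 4121 bp from its end.
Zbtb2, whose product binds unmethylated CpG-rich promoters in mouse embryonic stem cells, had a fold of 8.01 (5.30 to 11.7) in replicate 1, and one of 8.07 (5.49 to 11.5) in replicate 2 at chr10:4386793-4388042. The region began 66 bp after the start, with summits 685 and 955 bp downstream. Zbtb21 had a fold of 5.32 (3.27 to 8.24) in replicate 1, and one of 5.14 (3.50 to 7.30) in replicate 2 at chr16:97961939-97962917, which holds its start. Zbtb11, Zbtb2 and Zbtb21 had the summits of both libraries downstream of the start. The same held in 10 of 16 Zbtb genes with a region near their start, and in 60.7% of all shared regions near a start.
Zbtb6 and Zbtb26 are neighbours 1248 bp apart. At chr2:37430678-37431366 the fold was 4.48 (2.63 to 7.20) in replicate 1, with 4.97 (3.36 to 7.10) in replicate 2. Its summits lay at −110 and −20 bp from the Zbtb6 start. For Zbtb26 this is the far end of the gene, and its own start had only a replicate 2 peak with a fold of 3.64 (2.20 to 5.70). The other Zbtb6 region, at chr2:37422536-37423288, held the start of Rc3h2, and its fold was 3.08 (1.71 to 5.21) in replicate 1, with 9.07 (6.43 to 12.5) in replicate 2. It was among the last peaks of replicate 1, the 3935th of 3943, and the 294th of 6403 in replicate 2, and its counting intervals in the 2 libraries did not overlap. At the other 16 Zbtb regions they overlapped.

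**Figure D2:**
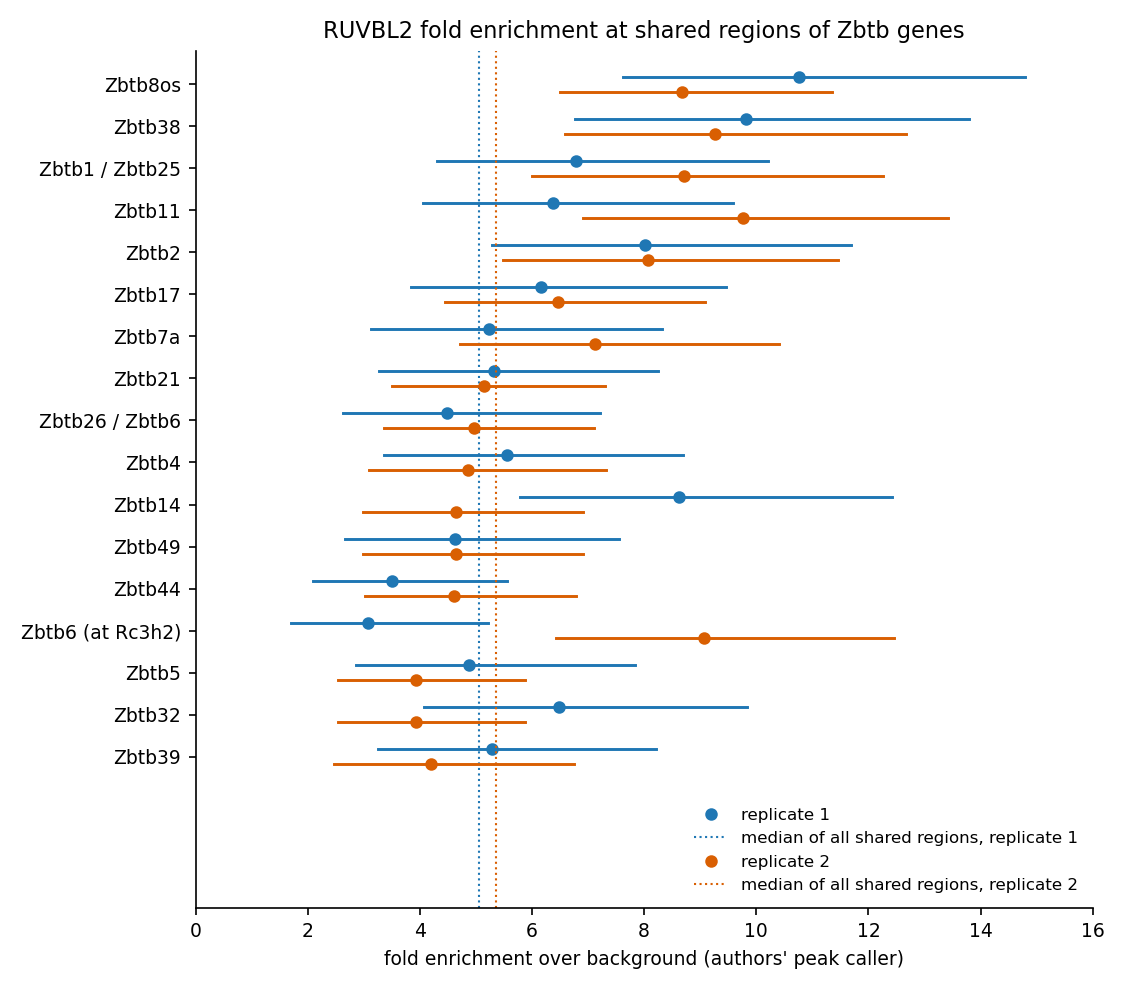
RUVBL2 fold enrichment, the authors' deposited value, at the 17 shared regions of Zbtb genes in each RUVBL2 ChIP library; points are the deposited folds, bars are their 95% Poisson counting intervals and dotted lines are the medians of all 3111 shared regions, 5.05 in replicate 1 and 5.35 in replicate 2. Zbtb8os and Zbtb38 lie above both lines with their whole intervals, and the replicate intervals at the region by Rc3h2 do not meet.

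The remaining 6 regions, at Zbtb14, Zbtb49, Zbtb44, Zbtb5, Zbtb32 and Zbtb39, ranked between the 2913th and the 5154th peak of replicate 2. In replicate 1 their ranks ran from the 155th, at Zbtb14, to the 3305th, at Zbtb44, with Zbtb32 the 662nd. Zbtb14, whose product binds GC-rich DNA, had a fold of 8.63 (5.79 to 12.4) in replicate 1, with 4.64 (2.98 to 6.92) in replicate 2. The folds at Zbtb49 were 4.62 in replicate 1 and 4.64 in replicate 2, and its region held the start of Lyar. Zbtb44 had 3.50 in replicate 1 and 4.62 in replicate 2, Zbtb5 had 4.87 and 3.94, and Zbtb39 had 5.30 and 4.20. The fold was the higher in replicate 2 at 9 of 17 regions, against 1769 of all 3111.

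Of the 36 Zbtb genes with a RefSeq promoter window, 13 had an annotated start inside a shared region (36.1%, interval 20.8 to 53.8), against 13.3% of protein-coding genes with a window (2320 of 17492). The distance from the region's midpoint to the member's nearest start had a median of 345 bp over 19 pairs of gene and region. Counted once per region, to the nearest start of any protein-coding gene, the median was 194 bp. Over all 3111 shared regions it was 193 bp. In 16 pairs within 3 kb of the gene's own start, both summits lay downstream of it in 10 (62.5%), both upstream in 4 and on different sides in 2. Over all shared regions with a midpoint within 3 kb of a start, both summits lay downstream in 60.7% (1494 of 2462). The 2 shares are near each other but were not counted alike. Each of all shared regions was counted once, against the nearest start of any protein-coding gene. The Zbtb pairs used the member's own start nearest the midpoint, so the region of Zbtb1 and Zbtb25 counts once as upstream and once as downstream.

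**Figure D3:**
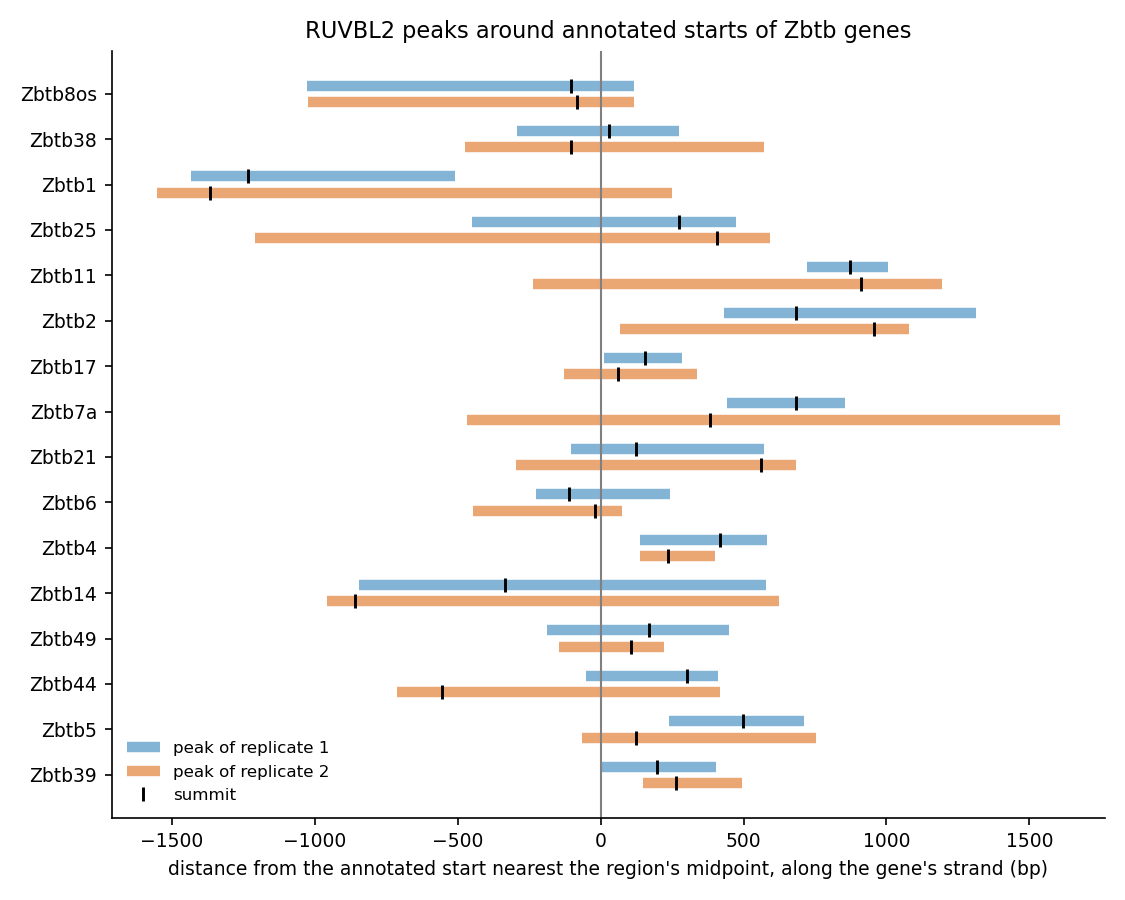
Position of the RUVBL2 peaks of each library (bars) and their summits (black ticks) around the annotated start nearest the region's midpoint, in bp along the gene's strand, for 16 Zbtb genes. Both summits lie downstream of the start in 10 genes, with Zbtb11 at 874 and 912 bp, and both lie upstream in 4, with Zbtb1 at −1233 and −1366 bp.

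Zbtb regions had a median width of 1049 bp (447 to 2074 bp), against 715 bp over all shared regions. They held a protein-coding start in 13 of 17 cases (76.5%), against 2084 of 3111 (67.0%). Zbtb regions lie by rule within 3 kb of a protein-coding gene or in its body, whereas the 3111 are not so limited. Starts of at least 2 protein-coding genes lay in 4 of 17 Zbtb regions (23.5%), all on opposite strands: Zbtb8os with Rbbp4, Zbtb1 with Zbtb25, Zbtb49 with Lyar, and Zbtb14 with Gm49894. Among all shared regions 241 of 3111 (7.75%) held starts of at least 2 protein-coding genes, of which 237 (7.62%) had them on opposite strands. Among regions that held a start, this was 4 of 13 Zbtb regions and 241 of 2084 shared regions. Where 2 genes share a region, the peak cannot be given to either gene.

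**Figure D4:**
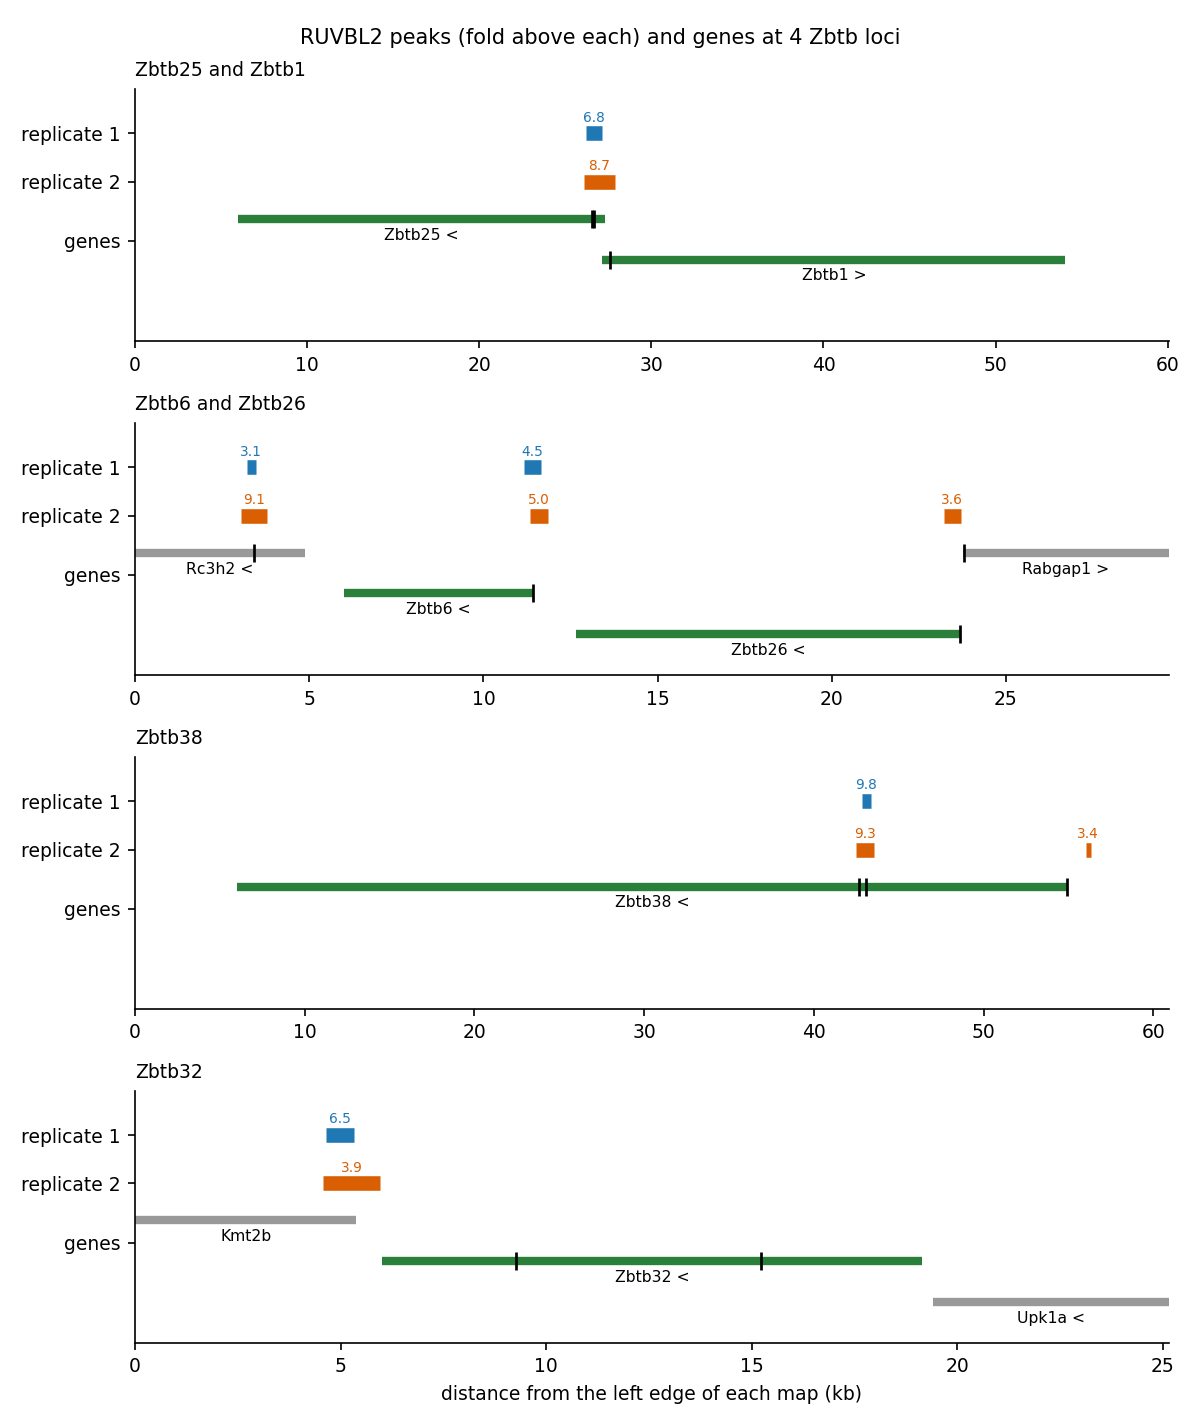
Maps of 4 Zbtb loci with the peaks of each library, labelled with their fold enrichment, Zbtb genes in green, neighbouring genes in grey and annotated starts as black ticks; the axis is kb from the left edge of each map. Zbtb1 and Zbtb25 share a region, Zbtb6 and Zbtb26 share a region beside one at Rc3h2, the strong Zbtb38 region lies at inner starts, and the Zbtb32 region lies at Kmt2b.

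The 12 genes with a peak in replicate 2 only were Zbtb7b, Zbtb9, Zbtb10, Zbtb12, Zbtb18, Zbtb20, Zbtb22, Zbtb24, Zbtb37, Zbtb40, Zbtb41 and Zbtb45. Their folds ran from 3.21 to 4.49 with a median of 4.09, and their ranks from 2618 to 6095 of 6403. All 3276 replicate 2 peaks outside shared regions had a median fold of 4.39. Zbtb7b, which sets the CD4 T lymphocyte fate, had a fold of 4.11 (2.37 to 6.72), 9126 bp from its nearest start. The Zbtb22 peak lay 16 bp from the start of Tapbp, which encodes tapasin, and 3318 bp from that of Zbtb22. Zbtb7c alone had a peak in replicate 1 only, with a fold of 4.62 (2.67 to 7.55) from a pileup of 14 reads. Such genes made up 29.3% of the Zbtb genes for replicate 2 only and 2.44% for replicate 1 only, against 14.8% and 3.14% of all protein-coding genes.

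The 10 genes with no peak were Zbtb3, Zbtb8a, Zbtb8b, Zbtb16, Zbtb33, Zbtb34, Zbtb42, Zbtb43, Zbtb46 and Zbtb48. Their nearest replicate 2 peaks lay from 3855 bp away at Zbtb46 to 367439 bp at Zbtb33. Zbtb16, which encodes PLZF of natural killer T cells and spermatogonia, was 156107 bp from the nearest replicate 1 peak and 149089 bp from the nearest replicate 2 peak. The neighbours Zbtb34 and Zbtb43, 18962 bp apart, both had none.

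Of 8 genes whose BTB zinc finger products are not named Zbtb, 4 had a shared region at an end (50%, interval 15.7 to 84.3). The folds in replicate 1 and replicate 2 were 6.16 and 8.04 at Patz1, 4.92 and 8.97 at Zfp131, 3.31 and 7.13 at Hic2, and 4.09 and 2.83 at Mynn. Zfp131 is also counted among the Zfp genes by its symbol. Gzf1 had a replicate 2 peak only, and Bcl6, Bcl6b and Hic1, transcriptional repressors, had none.
Of 16 genes for corepressors, the CUL3 ligase and MYC partners that act with BTB zinc finger proteins, 4 had a shared region at an end (25%, interval 7.27 to 52.4). Sin3a, which encodes a histone deacetylase scaffold, had a fold of 8.68 in replicate 1, and one of 8.69 in replicate 2. Ncor1, which encodes a nuclear receptor corepressor, had 6.997 in replicate 1 and 7.26 in replicate 2. Ctbp1 had 5.24 and 4.87 and the deacetylase gene Hdac1 3.70 and 3.60 in these libraries. The interval of each of these 2 lists is wide. The lists were chosen with earlier results known, and no difference from the 16% of all protein-coding genes was tested. A replicate 1 peak lay at an end or in the body of 43.75% of the cofactor genes, against 20.9% of all protein-coding genes. For replicate 2 these shares were 68.75% and 32.6%.

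The promoters of Zbtb genes with a start in a shared region were rich in CpG. Over 18 such windows of 13 genes the median was 32 CpG per window of 300 bases, against 18 in the other 31 Zbtb windows, 27 in all protein-coding windows with a start in a shared region and 13 in all 21263 protein-coding windows. Some genes have several starts, and their windows overlap.
The GC box occurred in 16 of the 18 windows (88.9%), against 73.3% of all protein-coding windows with a start in a shared region and 46.2% of all protein-coding windows. The E-box occurred in 5 windows (27.8%) of Zbtb11, Zbtb21, Zbtb25 and Zbtb49, against 10.7% and 7.84%. The CRE occurred in 2 (11.1%), Zbtb11 and Zbtb21, against 4.29% and 2.23%. Both printed windows show an E-box and a CRE, and in Zbtb21 the CRE begins at the start itself.
The CCAAT box was in 3 windows (16.7%), against 31.4% and 38.2%, and the NRF1 letters were in 3 (16.7%), of Zbtb14 and Zbtb17, against 6.80% and 3.52%. The ETS site was in 1 window (5.56%), that of Zbtb11, against 12.4% and 5.15%. The YY1 letters were in 0 of the 18 windows, against 7.82% and 1.83%, and the Kaiso core in 0 of them, against 3.76% and 1.24%. A match is a description of letters, and 0 of 18 windows says only that these letters are not in them. Among the windows of all Zbtb genes, 1 pair of matches to different motifs overlapped.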

How the data were processed

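RUVBL2 ChIP-seq peaks of 2 libraries were analysed, and the 2 input libraries were not analysed here. Per the submitters' processing notes, the tools were MACS2 2.1.0, Bowtie2 2.3.4.1, Trimmomatic 0.33, bcl2fastq 2.17 and ChIPseeker, on GRCm38, and their settings and the caller's control were not given in the sources used here. Peaks were called per library, with 3943 deposited in replicate 1 and 6403 in replicate 2. The deposited files give each peak a fold enrichment, a −log10 p and a −log10 q, and the deposited score is the −log10 q times 10 without its decimals. Total reads are unknown; summit pileups came from the fold and −log10 p, with whole numbers in 100% of peaks at a relative tolerance of 0.0001, and the step was tested on simulated data. Replicate 2's peak names begin with Hyp3 although its title has Hyp2.

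Genes and promoter windows were those of RefSeq for GRCm38.p6; 108 protein-coding rows in the first 3 Mb of a chromosome were left out. No protein sequences were used here. The members, gene lists and motifs were chosen with earlier results of these data known. The genes given with full values were the 12 with the best worse rank and every member of the role lists. Python 3.11.15, numpy 2.4.6, scipy 1.17.1 and matplotlib 3.10.9 were used.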

Additional observations from a re-analysis of the deposited data

How the results depend on the processing

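The number of Zbtb genes with a shared region at a gene end was 17 in the main count. With a −log10 q of at least 5 it was 11 (26.8%, against 1728 or 7.93% of all protein-coding genes), and 1 of the 8 other BTB zinc finger genes was left. With the 1000 best peaks of each list it was 6 (14.6%, against 611 or 2.81% of all protein-coding genes), and 7 with the body added. The best 1000 left 1 other BTB zinc finger gene and 2 cofactor genes, and the median folds of the Zbtb regions left were 7.40 in replicate 1 and 8.69 in replicate 2. With summits within 250 bp it was 10 (24.4%, against 2903 or 13.3% of all protein-coding genes), and 11 with the body added. An annotated start inside the region, chosen after seeing the data, gave 13 Zbtb genes and 2320 protein-coding genes. These are counted among the 36 and 17492 genes with a promoter window. The 13 include Zbtb38, whose shared region is in the body only. Leaving out 1 library, so that single peaks were counted, gave 17 to 30 Zbtb genes at an end, 19 to 30 at an end or in the body, 7 to 11 cofactor genes, 4 to 5 other BTB zinc finger genes and 4221 to 6622 protein-coding genes. The higher counts came without replicate 1, and the median fold was then 4.22 in replicate 2. Without replicate 2 it was 5.43 in replicate 1, and the 17 genes at an end lacked Zbtb11 and included Zbtb7c. The share of Zbtb genes was above that of all protein-coding genes under each setting named here. Each setting recounts the peaks on which the family was picked, so this carries no test. A 50% overlap left 17 genes (against 15.4% of all protein-coding genes), a window of 1 kb left 14 (against 13.9%), one of 10 kb gave 18 with Zbtb46 added (against 19.9%), and the nearest gene end alone left 13 (against 12.7%), without Zbtb25, Zbtb26, Zbtb32 and Zbtb49. The cause of these shifts was not tested.

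No paired analysis was possible because the results come from no test between groups, and the values used are the peak lists of 1 group, the ChIP libraries. The planned count of zinc finger matches in the proteins was not run. Summit pileups limit the precision of each fold: those of Zbtb peaks in replicate 2 alone were 12 to 34 reads, and those of shared Zbtb regions were 12 to 36 reads in replicate 1 and 15 to 51 in replicate 2.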
